A study of Mus musculus with 6 samples.

Results

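LDKO muscle was compared with Control muscle across all genes, in the 4 libraries of these genotypes among the 6 skeletal muscle libraries of the series. The 4 were taken by their column names in the table of all genes, where the Control columns carry the name Loxp. LDKO mice carry floxed Irs1 and Irs2 together with CreAlb, a Cre recombinase driven by the albumin promoter, so both genes are deleted in hepatocytes and not in muscle. Control mice are read as floxed mice without Cre, from that column name. The third genotype, LTKOFstL/L, carries in addition a floxed Fst gene, with loxP sites around exons 2 to 5. Its 2 libraries entered the centring of each gene, the choice of genes tested, their grouping by level and the estimate of the spread. Side-by-side values and a comparison of LDKO with LTKOFstL/L are also given. There were 2 libraries per genotype, all from male mice. A high fat diet is stated in the labels of the samples and chow from week 5 to week 16 in the text of the series, so the diet stays unsettled. The labels do not say whether the libraries of a genotype come from separate animals, which muscle was taken or which Cre-negative strain served as Control. The p-values therefore measure the spread between these libraries, which may be technical.

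Irs1 and Irs2 are the adaptor proteins that carry the signal of the insulin receptor to phosphoinositide 3-kinase and Akt. Without them the liver no longer answers insulin, and hepatic FoxO1 then raises the output of glucose and of secreted proteins, among them follistatin, which binds activins and myostatin. Skeletal muscle responds to insulin, to circulating fuels and to activin-type ligands, and it holds slow fibres, which oxidise fatty acids, and fast fibres, which rely more on glycolysis. The comparison asks which muscle transcripts differ when the deletion lies in the liver.

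Values are centred log2 expression: each gene was set to a median of 0 over the 6 libraries, so levels of different genes cannot be compared. Of 53342 genes in the table, 30413 were above the detection floor in at least 1 library and 16838 were tested. Depth is unknown, because the table holds no read totals. The LDKO and Control libraries had 24156 to 24763 genes over the floor. The scaled value of a single read was 1.81 and 1.76 for LDKO and 2.12 and 2.03 for Control, a difference in scaling that cannot be told apart from genotype. The skeletal actin gene Acta1 and the muscle creatine kinase gene Ckm had an estimated log2 level of 16.05 and 16.03 in the lowest of the 4 libraries. Angptl7 and Fmod, listed below as tendon and cartilage genes, had 16.02 and 16.0 by the same estimate. The estimate is the lower end of a range read from the rounding of the values. On simulated tables that range held the true level for only 75.3% and 75.7% of genes given a range, so these levels are no firm bounds. Such levels therefore do not check the muscle label, and the tissue is taken from the labels.

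LDKO 1 stood apart. The median absolute log2 difference over the genes tested was 0.340 between LDKO 1 and LDKO 2, and 0.242 between Control 1 and Control 2. LDKO 1 differed from Control 1 by 0.288 and from Control 2 by 0.402. LDKO 2 differed from Control 1 by 0.236 and from Control 2 by 0.237, which is no more than the Control libraries differed from each other. The mean of the LDKO libraries differed from the Control mean by a median of 0.206, and 843 genes (5.01%) differed by at least 2-fold. The values below are therefore given per library.

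**Figure D1:**
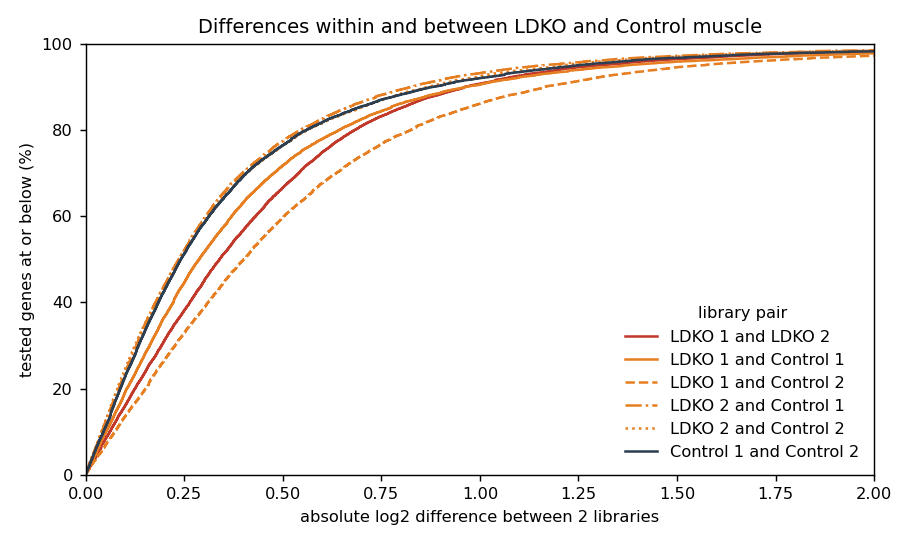
Share of the 16838 genes tested (y axis, percent) whose absolute log2 difference between 2 libraries is at or below the value on the x axis, with a line for each pair of LDKO and Control libraries. The curves of LDKO 2 against either Control library run together with that of the Control pair (median differences of 0.236, 0.237 and 0.242), and LDKO 1 against Control 2 (0.402) lies lowest.

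The targeted genes were measured in a tissue where they are not deleted, so they do not check the genotype. Irs1 (chromosome 1, 82233101 to 82291416) stood at −0.60 and 0.16 in LDKO and at 0.14 and 0.23 in Control, with an adjusted p of 0.813. Irs2 (chromosome 8, 10984681 to 11008458) stood at −0.69 and 0.69 in LDKO and at 0.91 and 0.81 in Control, with an adjusted p of 0.747. Both LDKO values of Irs2 lay below both Control values, and the difference of −0.86 became −0.16 without LDKO 1 and −1.55 without LDKO 2, where it passed in limma (adjusted p = 0.007). Fst, the follistatin gene, stood at −1.23 and −0.32 in LDKO muscle and at −0.00 and 0.00 in Control muscle, with an adjusted p of 0.747.

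Digestive enzyme genes of the pancreas were the most divergent group and are set aside here as carried over into Control muscle. Of 57 listed acinar genes, 39 were tested, and the median of these genes was 0.53 and −0.81 in LDKO 1 and LDKO 2, against 11.66 and 7.59 in Control 1 and Control 2. It was −1.29 and −0.93 in the LTKOFstL/L muscle. Of the 39, 33 fell in LDKO. The list was set aside for its high Control values, and its genes could reach the level filter through the Control libraries alone. These calls therefore follow from that choice and are no independent result. Of 15 islet genes, 6 lay at the floor throughout, among them Gcg, Sst and Pdx1, and 1 was tested. Over all genes tested 5 were higher (0.0297%) and 36 lower (0.214%) in LDKO at an adjusted p under 0.05 in limma with Benjamini-Hochberg adjustment, and 1172 (6.96%) had an unadjusted p under 0.05, 2.98% higher and 3.99% lower. Outside the acinar list 5 genes rose (0.0298% of 16799) and 3 fell (0.0179%), 8 in all (0.0476%).

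The 8 genes outside the acinar list were Myh3, BC048679, Ifi202b, Gm6472 and Gm16505, which rose in LDKO muscle, and Chad, Gm10327 and Gm44364, which fell. The number of these calls was 2 without LDKO 1 (Gm10327 and Gm6472), 57 without LDKO 2, 3 without Control 1 and 13 without Control 2. Without either LTKOFstL/L library 5 genes passed, and of the 8 these included Gm10327 and Gm6472, with adjusted p from 0.0627 to 0.144 for the other 6. With a single variance prior Gm10327 alone passed, and the other 7 had adjusted p from 0.0555 to 0.306. When the fit held no acinar gene, 3 of the 8 passed, Gm10327, Gm6472 and Gm44364, and the other 5 had adjusted p from 0.0589 to 0.177.

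**Figure D2:**
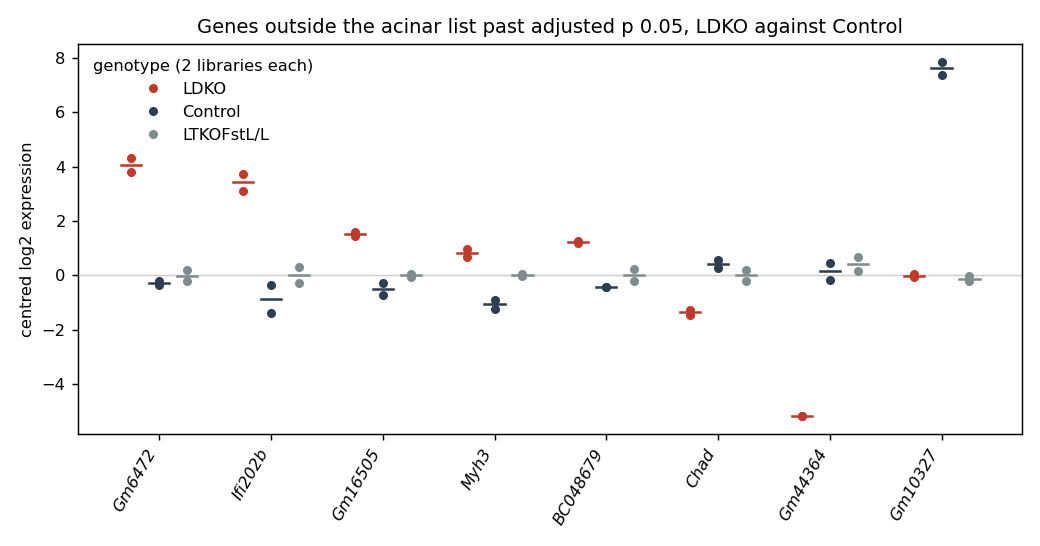
Centred log2 expression (y axis) of the 8 genes outside the acinar list that passed, with a point per library, a bar at the mean of 2 libraries, and LDKO, Control and LTKOFstL/L side by side for each gene. The LDKO points do not overlap the Control points for any of the 8, and the largest gaps are at Gm10327, where both Control libraries lie above 7, and Gm44364, where both LDKO libraries lie at −5.18.

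Myh3 encodes the embryonic myosin heavy chain, which is made in developing and regenerating fibres. It stood at 0.97 and 0.66 in the LDKO libraries, against −0.89 and −1.25 in Control, and at −0.04 and 0.04 in LTKOFstL/L muscle. Both LDKO values lay above the other 4. Myh3 (chromosome 11, 67078300 to 67102291) rose by 1.88 ± 0.18 (SE, n = 2 libraries each, adjusted p = 0.0112 in limma). The call was lost without LDKO 1 (difference 1.73), Control 1 (2.06) or Control 2 (1.71). The LDKO and Control libraries of Myh3 do not overlap, so leaving out a library could not reverse the direction.

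Casq2 and Myh6 stood just outside the threshold and moved the same way as Myh3. Casq2 encodes the calcium-binding calsequestrin of slow and cardiac muscle, and it stood at 0.92 and 1.06 in LDKO, against −0.01 and −0.14 in Control (difference 1.06 ± 0.14, adjusted p = 0.0504). Myh6, the alpha cardiac myosin heavy chain, stood at 1.53 and 1.28 in LDKO, against 0.06 and −0.61 in Control (difference 1.68 ± 0.23, adjusted p = 0.0566). For neither gene did the LDKO and Control libraries overlap. Reads may be shared between Myh6 and its neighbour and close paralogue Myh7.

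Chad encodes chondroadherin, a leucine-rich repeat protein of cartilage and tendon matrix. It stood at −1.47 and −1.27 in the LDKO libraries, against 0.28 and 0.57 in Control, and at 0.20 and −0.20 in LTKOFstL/L muscle. Chad (chromosome 11, 94565047 to 94569127) fell by 1.79 ± 0.19 (SE, adjusted p = 0.0164 in limma), and both LDKO values lay below the other 4. The gene lies within Acsf2 on the opposite strand, and whether counting used the strand is not given in the sources used here. Without LDKO 1 the difference was −1.69 (adjusted p = 0.126), and without Control 1 or Control 2 it was −1.94 (0.0904) or −1.65 (0.109).

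The 250 bases before the transcription start of these 4 genes are shown because they are the muscle and matrix genes with the smallest p-values, Myh3, Casq2 and Myh6 toward higher and Chad toward lower values in LDKO. The sequences are from RefSeq on GRCm38.p6, 5′ to 3′ on the strand of the gene, at chr11:67078050-67078299 (plus), chr3:102086165-102086414 (plus), chr14:54966608-54966857 (minus) and chr11:94564797-94565046 (plus). Capitals mark E-boxes, the letters CANNTG, to which myogenic basic helix-loop-helix factors can bind.
Myh3: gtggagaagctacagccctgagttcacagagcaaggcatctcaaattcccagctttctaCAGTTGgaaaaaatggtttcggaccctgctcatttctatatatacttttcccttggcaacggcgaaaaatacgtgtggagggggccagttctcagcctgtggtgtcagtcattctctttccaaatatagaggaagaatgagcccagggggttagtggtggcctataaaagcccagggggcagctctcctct
Casq2: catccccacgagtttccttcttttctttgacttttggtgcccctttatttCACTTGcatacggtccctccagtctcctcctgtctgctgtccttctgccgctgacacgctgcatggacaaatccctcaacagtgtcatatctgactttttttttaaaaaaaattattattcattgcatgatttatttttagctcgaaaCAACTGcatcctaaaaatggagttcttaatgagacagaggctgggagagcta
Myh6: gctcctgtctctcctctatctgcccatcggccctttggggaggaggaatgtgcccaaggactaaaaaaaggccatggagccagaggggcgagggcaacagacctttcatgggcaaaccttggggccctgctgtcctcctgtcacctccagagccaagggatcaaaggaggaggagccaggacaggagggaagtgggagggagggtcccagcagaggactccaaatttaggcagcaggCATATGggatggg
Chad: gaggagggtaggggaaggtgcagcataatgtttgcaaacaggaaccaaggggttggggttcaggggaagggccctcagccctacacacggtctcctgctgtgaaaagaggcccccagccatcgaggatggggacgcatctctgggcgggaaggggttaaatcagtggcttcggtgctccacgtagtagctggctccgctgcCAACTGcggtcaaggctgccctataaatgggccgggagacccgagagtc
Casq2 held 2 E-boxes in this window, and Myh3, Myh6 and Chad held 1 each. Of 32851 mouse promoters of the same length 66.2% held at least 1, both strands searched. The E-box form CAGCTG was in none of the 4 windows and in 13.0% of all promoters. TATAAA began 29 bases before the start of Myh3 and 28 before that of Chad, and 12.4% of all promoters held it on either strand. The forkhead motif GTAAACA was in none of the 4 and in 3.17% of all promoters. These matches describe the letters of the windows and say nothing of binding.

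The other calls were in genes with little known of them in muscle. BC048679 (chromosome 7, 81494275 to 81498281) stood at 1.26 and 1.19 in LDKO, against −0.43 and −0.42 in Control, and rose by 1.65 ± 0.17 (adjusted p = 0.0146). Ifi202b, an interferon-inducible gene of the innate immune system (chromosome 1, 173962568 to 173982744), stood at 3.11 and 3.71 in LDKO, against −1.37 and −0.35 in Control, and rose by 4.28 ± 0.68 (adjusted p = 0.0484). In its lower Control library Ifi202b had an estimated log2 level of only 0.63 above the floor. Reads may be shared within the Ifi200 family, of which Ifi202b is a member.

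Gm10327, a processed pseudogene (chromosome 10, 33808497 to 33809498), stood at −0.08 and 0.04 in LDKO muscle, at 7.38 and 7.86 in Control muscle and at −0.04 and −0.21 in LTKOFstL/L muscle. It fell by 7.64 ± 0.29 (adjusted p = 9.76e-05 in limma), and it passed in each of the 15 alternative fits (adjusted p from 4.5e-05 to 0.0442). Its high values were thus in both Control libraries, and both other genotypes were low. Some other processed pseudogenes differed as widely between the libraries of a single genotype. In LTKOFstL/L, Gm10481 stood at 3.33 and −3.09, Gm14148 at −3.47 and 2.62 and Gm10293 at 2.01 and −2.27. Whether the order of Gm10327 follows genotype was not tested. Gm6472, a transcribed pseudogene on chromosome X (152909505 to 152910155), stood at 3.81 and 4.30 in LDKO, against −0.20 and −0.38 in Control, and rose by 4.34 ± 0.31 (adjusted p = 0.00611). It passed without each single library and was lost with a single variance prior (0.0574) and with a spline trend (0.106).

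Gm16505, an unprocessed pseudogene on chromosome 13 (3358273 to 3363862), stood at 1.59 and 1.43 in LDKO, against −0.29 and −0.71 in Control, and rose by 2.01 ± 0.28 (adjusted p = 0.0458). Gm44364 (chromosome 6, 136808543 to 136808683), annotated as a miRNA gene, was listed at the floor of −5.18 in both LDKO libraries, against 0.45 and −0.17 in Control and 0.17 and 0.67 in LTKOFstL/L. It passed (adjusted p = 0.0112), and no fold is given because LDKO was at the floor. It lies inside H2afj on the opposite strand. Reads of the 3 pseudogenes could also belong to their parent genes, so their values are uncertain.

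Slow fibre genes lay higher in LDKO muscle as a group. All 15 listed genes were tested, 0 passed in limma, and 9 higher genes had an unadjusted p under 0.05, against 2.98% of all genes tested. Their median log2 difference was 0.62, against 0.00 over all genes tested. In 11 of the 15 (73.3%) both LDKO libraries lay above both Control libraries, and in 0 below, where the shares over all genes tested were 16.4% and 17.1%. The same shares apply to the counts above and below of each list that follows. The library medians of the list were 0.48 and 0.48 in LDKO, against 0.03 and −0.37 in Control. The order does not rest on LDKO 1: LDKO 2 alone lay above both Control libraries in 14 of 15, against 32% of all genes tested. Without Control 2 the median difference was 0.37, and without Control 1 it was 0.83.

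The members span the slow sarcomere. Tnni1, slow troponin I, stood at 0.49 and 0.65 in LDKO, against 0.05 and −0.38 in Control (difference 0.74 ± 0.18, adjusted p = 0.415). Myl6b, a slow alkali light chain, stood at 0.77 and 0.90 in LDKO, against −0.24 and −0.55 in Control (1.23 ± 0.22, adjusted p = 0.178). Myoz2, a calcineurin-binding protein of the slow Z-disc, stood at 0.48 and 0.45 in LDKO, against −0.02 and −0.36 in Control (0.66 ± 0.16, adjusted p = 0.43). In each of these genes the LDKO pair lay above the Control pair, with the lower values in Control 2. The slow myosin heavy chain Myh7 itself separated by little, at 0.05 and 0.71 in LDKO, against 0.05 and −0.52 in Control (adjusted p = 0.727). The slow calcium pump gene Atp2a2 overlapped, at −0.29 and 0.76 in LDKO, against 0.27 and −0.03 in Control.

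Fast fibre genes showed no such shift. All 16 were tested, with a median difference of −0.01, 2 (12.5%) with both LDKO libraries above both Control libraries and 0 below. None passed, and 2 had an unadjusted p under 0.05. The 2 were Myh1, the IIX myosin heavy chain, at 0.53 and 0.22 in LDKO, against −0.18 and −0.28 in Control (adjusted p = 0.571), and Myh2, the IIA chain, at 0.56 and 0.24 in LDKO, against 0.06 and −0.34 in Control (adjusted p = 0.644). Myh4, the IIB chain, overlapped at 0.07 and −0.06 in LDKO, against 0.11 and 0.05 in Control. The 2 LDKO libraries went opposite ways on this list: LDKO 1 lay above both Control libraries in 12 of 16, and LDKO 2 lay below both in 12 of 16. A mean over the LDKO libraries therefore hides a difference between them.

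**Figure D3:**
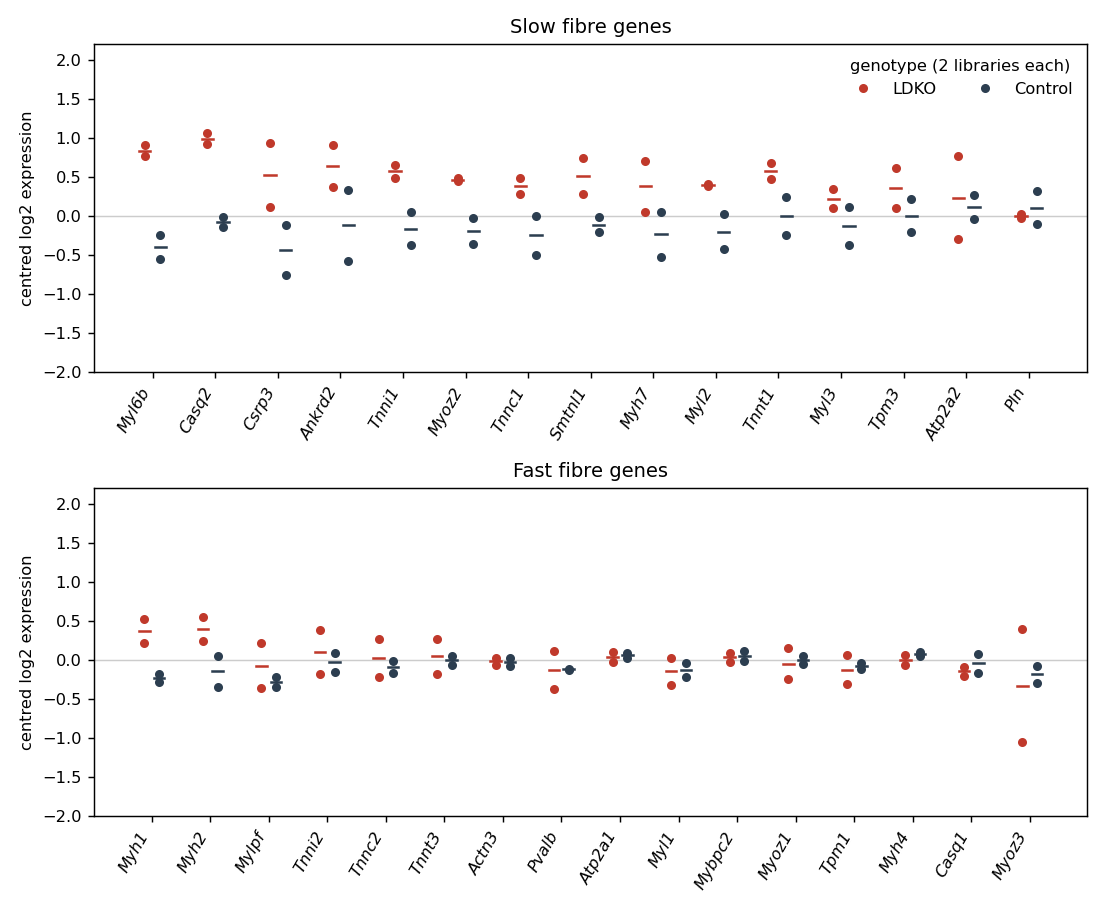
Centred log2 expression (y axis) of the 15 slow fibre genes (upper panel) and the 16 fast fibre genes (lower panel), with a point per library and a bar at each mean, LDKO left of Control for each gene. In 11 of the 15 slow genes both LDKO points lie above both Control points, and in the fast panel this holds for Myh1 and Myh2 only.

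Genes of embryonic and regenerating fibres had a median difference of 0.41 over the 24 listed, all tested, with Myh3 as their 1 call. Both LDKO libraries lay above both Control libraries in 11 of the 24 (45.8%, against 16.4% of all genes tested). They lay below in 4 (16.7%, against 17.1%). Those above included Chrng, the fetal gamma subunit of the acetylcholine receptor, at 1.11 and 0.19 in LDKO, against −0.19 and −1.15 in Control (adjusted p = 0.653). Sln encodes sarcolipin, a small inhibitor of the muscle calcium pump, and stood at 1.44 and 0.91 in LDKO, against 0.13 and −0.77 in Control (difference 1.5 ± 0.38, adjusted p = 0.448). The myogenic regulators were on the other side: myogenin, Myog, stood at −0.50 and 0.50 in LDKO, against 1.25 and 1.67 in Control (−1.46 ± 0.37, adjusted p = 0.43), and Myod1 and Myf6 also had both LDKO libraries below both Control libraries. Without LDKO 1 the list's median difference was 0.28, and without LDKO 2 it was 0.43. It was 0.59 without Control 1 and 0.29 without Control 2.

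Neuromuscular junction genes (18 of 20 tested) had a median difference of 0.10, with 4 above (22.2%), 1 below and 0 passing. Calcium handling genes (25 of 25 tested) had a median of 0.04, with 5 above (20%) and 1 below. The shares above lie near the 16.4% over all genes. Satellite cell markers (12 of 14 tested) had a median of −0.10, with 1 above and 4 below (33.3%). These 3 medians rest on single libraries. The junction median was 0.20 without LDKO 2 and −0.02 without Control 2, and the calcium median −0.07 without LDKO 1 and 0.15 without LDKO 2. The satellite cell median was −0.38 without LDKO 2, −0.36 without Control 1 and 0.02 without Control 2.

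Fatty acid uptake and oxidation genes were shifted upward by a small amount, with 0 of the 41 passing and an unadjusted p under 0.05 in 8 higher and 2 lower genes. Their median difference was 0.20, 22 (53.7%) had both LDKO libraries above both Control libraries and 4 (9.76%) below. Over all genes tested 16.4% lay above and 17.1% below, and 2.98% were higher and 3.99% lower at an unadjusted p under 0.05. Decr1, which encodes the mitochondrial 2,4-dienoyl-CoA reductase, stood at 0.51 and 0.28 in LDKO, against −0.12 and −0.24 in Control (0.58 ± 0.15, adjusted p = 0.459). Plin5, a perilipin that ties lipid droplets to mitochondria, stood at 0.62 and 0.49 in LDKO, against 0.12 and −0.12 in Control (0.55 ± 0.15, adjusted p = 0.487). Fabp3, the muscle fatty acid carrier, stood at 0.93 and 0.27 in LDKO, against −0.10 and −0.27 in Control (0.79 ± 0.24, adjusted p = 0.597). The groups of these 3 did not overlap, though the LDKO libraries of Fabp3 were farther from each other than LDKO 2 was from either Control library. Cpt2, carnitine palmitoyltransferase, stood at 0.36 and 0.38 in LDKO, against 0.03 and −0.08 in Control (adjusted p = 0.636).

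Among the exceptions on the fatty acid list, which lay below Control, was Cyp4a14. This fatty acid hydroxylase gene, a PPAR alpha target, stood at 1.31 and −1.31 in LDKO, against 2.58 and 1.76 in Control (−2.17 ± 0.75, adjusted p = 0.636). Its groups did not overlap, though its LDKO libraries were far apart. The median of the list was 0.20 without LDKO 1 and 0.26 without LDKO 2.

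Respiratory chain genes showed mainly the difference between the LDKO libraries. Of 56 oxidative phosphorylation genes, all tested, LDKO 1 lay above both Control libraries in 48 (85.7%, against 39.3% of all genes), and LDKO 2 did so in 5 (8.93%, against 32%). Their median difference was 0.15, and −0.03 without LDKO 1, and 2 (3.57%) were above and 3 (5.36%) below in both libraries. The complex IV gene Cox5b stood at 0.44 and −0.05 in LDKO, against 0.05 and −0.27 in Control (adjusted p = 0.841). Pyruvate dehydrogenase and citrate cycle genes (31 tested) had a median of 0.04, with 7 above (22.6%) and 1 below. Glycolysis genes (26 entries tested) had a median of −0.02, with 2 above and 5 below, and glycogen genes (19 tested) a median of −0.13, with 2 above and 6 below (31.6%).

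Use of acetate and ketone bodies held a gene with a clear gap. Acss1, the mitochondrial acetyl-CoA synthetase, stood at 0.97 and 0.89 in LDKO, against 0.21 and −0.21 in Control (0.93 ± 0.17, adjusted p = 0.218), and at −1.16 and −1.15 in LTKOFstL/L. Bdh1, which oxidises beta-hydroxybutyrate, stood at 0.17 and 0.04 in LDKO, against −0.32 and −0.66 in Control (0.60 ± 0.17, adjusted p = 0.544). The 27 amino acid and ketone use genes as a whole had a median of 0.00, with 6 above (22.2%) and 3 below (11.1%).

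Lipid synthesis and fat cell genes differed between the LDKO libraries rather than from Control. The 29 lipid synthesis genes had a median of −0.16, which was 0.11 without LDKO 1 and −0.40 without LDKO 2. LDKO 1 lay below both Control libraries in 20 of them (69%, against 39.1% of all genes) and LDKO 2 in 4 (13.8%, against 32.6%). The 18 adipocyte markers behaved alike, with LDKO 1 below in 13 and LDKO 2 above in 10. Adipoq, the fat cell hormone adiponectin, stood at −0.86 and 0.23 in LDKO, against −0.55 and −0.23 in Control (adjusted p = 0.977). The adipocyte markers moved with the lipid synthesis genes, and their part in the lipid values was not tested.

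Tendon, cartilage and fibroblast genes lay lower in LDKO muscle. Of 28 tendon and cartilage genes 26 were tested, with a median difference of −0.45 and Chad as the 1 call. In 13 (50.0%) both LDKO libraries lay below both Control libraries and in 1 above, against 17.1% and 16.4% over all genes. Both LDKO libraries took part: LDKO 1 lay below both Control libraries in 17 and LDKO 2 in 16. The median was −0.40 without LDKO 1 and −0.58 without LDKO 2.

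Among the small leucine-rich proteoglycans of tendon, Fmod, fibromodulin, stood at −0.68 and −0.95 in LDKO, against 0.09 and 0.22 in Control (−0.97 ± 0.17, adjusted p = 0.179). Kera, keratocan, stood at −1.92 and −2.96 in LDKO, against −0.31 and 0.72 in Control (−2.65 ± 0.49, adjusted p = 0.179). Tnmd, the tenocyte membrane protein tenomodulin, stood at −1.06 and −1.35 in LDKO, against 0.03 and −0.03 in Control (−1.21 ± 0.27, adjusted p = 0.304). All 3 had LDKO values below Control in both libraries. The tendon transcription factor Scx did not follow, at 0.43 and −0.42 in LDKO, against −0.34 and −0.16 in Control, and neither did Mkx and Thbs4, whose groups overlapped. In bulk RNA, fewer cells of a type and less RNA per cell cannot be told apart.

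Fibroblast and fibro-adipogenic markers, 18 of 18 tested, had a median of −0.44, with 10 below (55.6%) and 1 above. Gsn, gelsolin, stood at −0.21 and −0.21 in LDKO, against 0.48 and 0.40 in Control (−0.65 ± 0.16, adjusted p = 0.406). Dcn, decorin, which stands on both lists, was at −0.62 and −0.14 in LDKO, against 0.45 and 0.77 in Control (−0.99 ± 0.25, adjusted p = 0.448). For 40 genes of the extracellular matrix the median was −0.06, with 16 below (40.0%) and 3 above (7.50%). Their lower members included fibrillin, Fbn1, at −0.57 and −1.04 in LDKO, against −0.12 and 0.12 in Control (adjusted p = 0.406). Postn, periostin, a matricellular protein of remodelling tissue, went the other way at 0.92 and −0.18 in LDKO, against −1.55 and −1.38 in Control (1.84 ± 0.39, adjusted p = 0.248). The fibrillar collagen genes Col1a1 and Col3a1 overlapped, with adjusted p of 0.978 and 0.995. LDKO 2 lay below both Control libraries in 28 of the 40 matrix genes and LDKO 1 in 17.

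**Figure D4:**
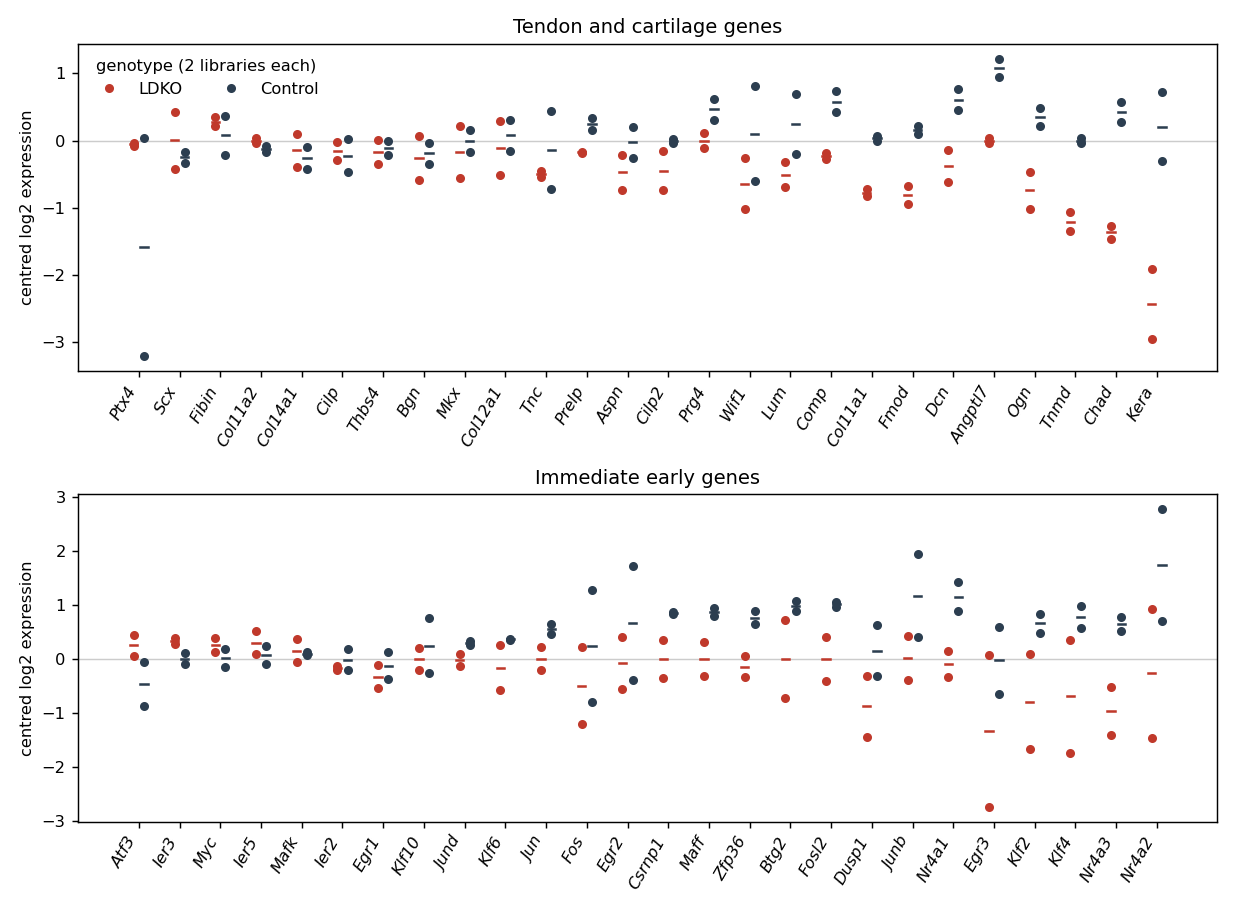
Centred log2 expression (y axis) of the 26 tendon and cartilage genes tested (upper panel) and the 26 immediate early genes tested (lower panel), with a point per library and a bar at each mean, LDKO left of Control. In 13 tendon genes and 12 immediate early genes both LDKO points lie below both Control points, and the LDKO points of the immediate early genes are the more widely spread.

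Nerve and immune cell markers were lower as well, with more of the difference in a single LDKO library. Of 19 Schwann cell and nerve genes 14 were tested, with a median of −0.87, 10 below (71.4%), 0 above and 0 passing, and with 6 (42.9%) at an unadjusted p under 0.05. Their library medians were −0.84 and −0.08 in LDKO, against 0.78 and 0.09 in Control, so the widest gap was between LDKO 1 and Control 1. The median was −0.50 without LDKO 1 and −0.56 without Control 1. Of all genes tested 17.1% lay below and 16.4% above, and 3.99% were lower at an unadjusted p under 0.05. Mbp, myelin basic protein, stood at −1.18 and −0.11 in LDKO, against 0.83 and 0.17 in Control (−1.15 ± 0.40, adjusted p = 0.644). Myelin genes are made by Schwann cells of the nerve in muscle, and the part of nerve content in other values was not tested.

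Macrophage and leukocyte markers (24 tested of 32 listed) had a median of −0.42. Of these, 13 lay below (54.2%, against 17.1% of all genes tested) and 0 above (against 16.4%). Here LDKO 2 was the lower library, below both Control libraries in 19 of 24, and LDKO 1 in 13. The complement gene C1qc stood at −0.06 and −0.60 in LDKO, against 0.48 and 0.18 in Control (adjusted p = 0.607), and the lysozyme gene Lyz2 at −0.07 and −0.76 in LDKO, against 0.24 and 0.15 in Control (adjusted p = 0.667). Without LDKO 2 the median was −0.10. Smooth muscle and pericyte markers (15 tested) had a median of −0.26 (−0.03 without Control 2) with 6 below (40.0%), endothelial markers (20 tested) −0.08 with 7 below (35.0%) and 2 above. Hepatocyte markers (14 tested) had 0 non-overlapping members in either direction.

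Immediate early genes, which are switched on within minutes of contraction or handling, had the lowest median outside the nerve, islet and acinar lists. Of 28 listed, 26 were tested, with a median of −0.80, 12 below (46.2%) and 2 above (7.69%). None passed, and 12 lower genes (46.2%) had an unadjusted p under 0.05. Over all genes tested 17.1% lay below and 16.4% above, and 3.99% were lower at an unadjusted p under 0.05. Nr4a1, an orphan nuclear receptor gene, stood at −0.34 and 0.14 in LDKO, against 0.88 and 1.42 in Control (−1.25 ± 0.25, adjusted p = 0.248). Zfp36, an mRNA-decay factor gene, stood at −0.34 and 0.04 in LDKO, against 0.88 and 0.64 in Control (−0.91 ± 0.19, adjusted p = 0.277). Nr4a3 stood at −1.41 and −0.52 in LDKO, against 0.52 and 0.78 in Control (−1.61 ± 0.44, adjusted p = 0.48). The groups of these 3 did not overlap, whereas Fos, at −1.21 and 0.21 in LDKO, against −0.79 and 1.28 in Control, did. LDKO 1 carried most of the list: the median was −0.26 without it and −1.20 without LDKO 2.

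A carrier and a coactivator of mitochondrial energy use showed the same order. Slc25a25, a mitochondrial ATP-Mg carrier, stood at −1.45 and 0.07 in LDKO, against 1.27 and 1.73 in Control (−2.20 ± 0.44, adjusted p = 0.248). Ppargc1a, the coactivator of mitochondrial biogenesis, stood at −1.59 and −0.56 in LDKO, against 0.30 and 0.05 in Control (−1.25 ± 0.31, adjusted p = 0.445). The LDKO values of both lay below the Control values, with LDKO 1 the lower. The 31 energy regulator and uncoupling genes as a whole had a median of −0.06, with 7 below (22.6%) and 4 above (12.9%).

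Genes of the activin, myostatin and BMP pathway, to which follistatin belongs, had a median of −0.14 over 43 of 47 genes tested, with 12 below (27.9%) and 5 above (11.6%). None passed, and 1 higher and 5 lower genes had an unadjusted p under 0.05. Over all genes tested 17.1% lay below and 16.4% above, and 2.98% were higher and 3.99% lower at an unadjusted p under 0.05. Smad3, which carries the signal of activin and TGF-beta receptors to the nucleus, stood at −1.73 and −1.11 in LDKO, against −0.07 and 0.27 in Control (−1.51 ± 0.23, adjusted p = 0.0973), and at 0.23 and 0.07 in LTKOFstL/L. Both LDKO values of Smad3 lay below the other 4. Id4, a target of BMP signalling, stood at −2.37 and −0.66 in LDKO, against 0.10 and 0.67 in Control (−1.90 ± 0.53, adjusted p = 0.496). The ligand Tgfb2 stood at −0.83 and −0.54 in LDKO, against −0.16 and 0.42 in Control (adjusted p = 0.544). Mstn, myostatin, overlapped at −0.45 and 0.13 in LDKO, against −0.41 and −0.13 in Control. The receptor Acvr2b stood at 0.92 and 0.24 in LDKO, against 0.13 and −0.13 in Control (adjusted p = 0.788). Without LDKO 1 the median of the list was 0.00.

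Insulin signalling genes in muscle were divided. Of 35 listed, 34 were tested, with a median of 0.14, 7 above (20.6%) and 7 below (20.6%), close to the shares over all genes. Trib3, an inhibitor of Akt, stood at 0.78 and 0.48 in LDKO, against 0.03 and −0.81 in Control (adjusted p = 0.624). The receptor gene Insr and the kinase gene Akt2 overlapped, with adjusted p of 0.955 and 0.999, and Slc2a4, the insulin-responsive glucose transporter, stood at 0.08 and −0.07 in LDKO, against −0.11 and −0.36 in Control (adjusted p = 0.814). The 19 genes of the IGF axis had a median of 0.00, 4 above and 6 below. The 4 members with the smallest p were 2 feedback inhibitors of growth hormone signalling and 2 IGF-binding proteins. Socs2 stood at 0.06 and 0.77 in LDKO, against −0.85 and −1.09 in Control (1.38 ± 0.37, adjusted p = 0.453), and Cish at −0.12 and 0.12 in LDKO, against −0.86 and −1.59 in Control (1.22 ± 0.40, adjusted p = 0.599). Igfbp4 stood at −0.05 and −0.32 in LDKO, against 0.36 and 0.30 in Control (−0.52 ± 0.16, adjusted p = 0.588), and Igfbp7 at −0.39 and −0.53 in LDKO, against −0.05 and 0.05 in Control (−0.46 ± 0.14, adjusted p = 0.594). Igf1os, the transcript opposite Igf1, stood at 0.00 and −0.00 in LDKO, against −1.67 and −1.60 in Control (1.63 ± 0.26, adjusted p = 0.089), while Igf1 itself overlapped (adjusted p = 0.935).

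Growth control genes had small upward medians, and 0 of them passed. Over all genes tested 16.4% lay above and 17.1% below, and in lists this short a few genes make up the difference. FoxO and autophagy genes (21 tested) had a median of 0.18, with 6 above (28.6%) and 1 below. The 17 atrophy ubiquitin ligases had a median of 0.11 with 4 above (23.5%) and 0 below. The list of growth brakes of mTORC1 (17 tested of 19 listed) had a median of 0.06 with 5 above (29.4%) and 0 below. That list also holds Mtor, the kinase of mTORC1, and Rheb, which are not brakes. Mtor is among the 5 above, at 0.39 and 0.17 in LDKO, against 0.13 and −0.13 in Control, and Rheb overlapped. Trim63, the ligase MuRF1, stood at 0.82 and 0.71 in LDKO, against 0.55 and −0.55 in Control (0.77 ± 0.32, adjusted p = 0.709). Fbxo32, atrogin-1, stood at 0.56 and 0.69 in LDKO, against 0.30 and −0.30 in Control (0.63 ± 0.22, adjusted p = 0.644). The sestrin gene Sesn1 stood at 0.99 and 1.43 in LDKO, against 0.55 and −0.55 in Control (1.21 ± 0.35, adjusted p = 0.567). In all 3 the Control libraries were farther apart than the LDKO libraries, with Control 2 the lower. Without Control 2 the median of the FoxO and autophagy list was −0.01.

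Polyamine genes included enzymes whose LDKO values both lay below Control. Amd1, S-adenosylmethionine decarboxylase, stood at −1.33 and −0.96 in LDKO, against −0.17 and 0.17 in Control (−1.15 ± 0.19, adjusted p = 0.131). Its intronless copy Amd2 stood at −1.24 and −0.92 in LDKO, against −0.03 and 0.03 in Control (−1.08 ± 0.16, adjusted p = 0.0752). Reads may be shared between Amd1 and Amd2, so these count as a single observation. Smox, spermine oxidase, stood at −1.16 and −0.76 in LDKO, against 0.05 and −0.05 in Control (−0.96 ± 0.20, adjusted p = 0.282). The 13 tested polyamine genes had a median of −0.23, or of −0.07 without LDKO 1. Of these, 5 lay below (38.5%, against 17.1% of all genes tested) and 0 above (against 16.4%). These counts take Amd1 and Amd2 as separate genes, so the share below is overstated if their reads are shared. Odc1, ornithine decarboxylase, overlapped (adjusted p = 0.911).

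**Figure D5:**
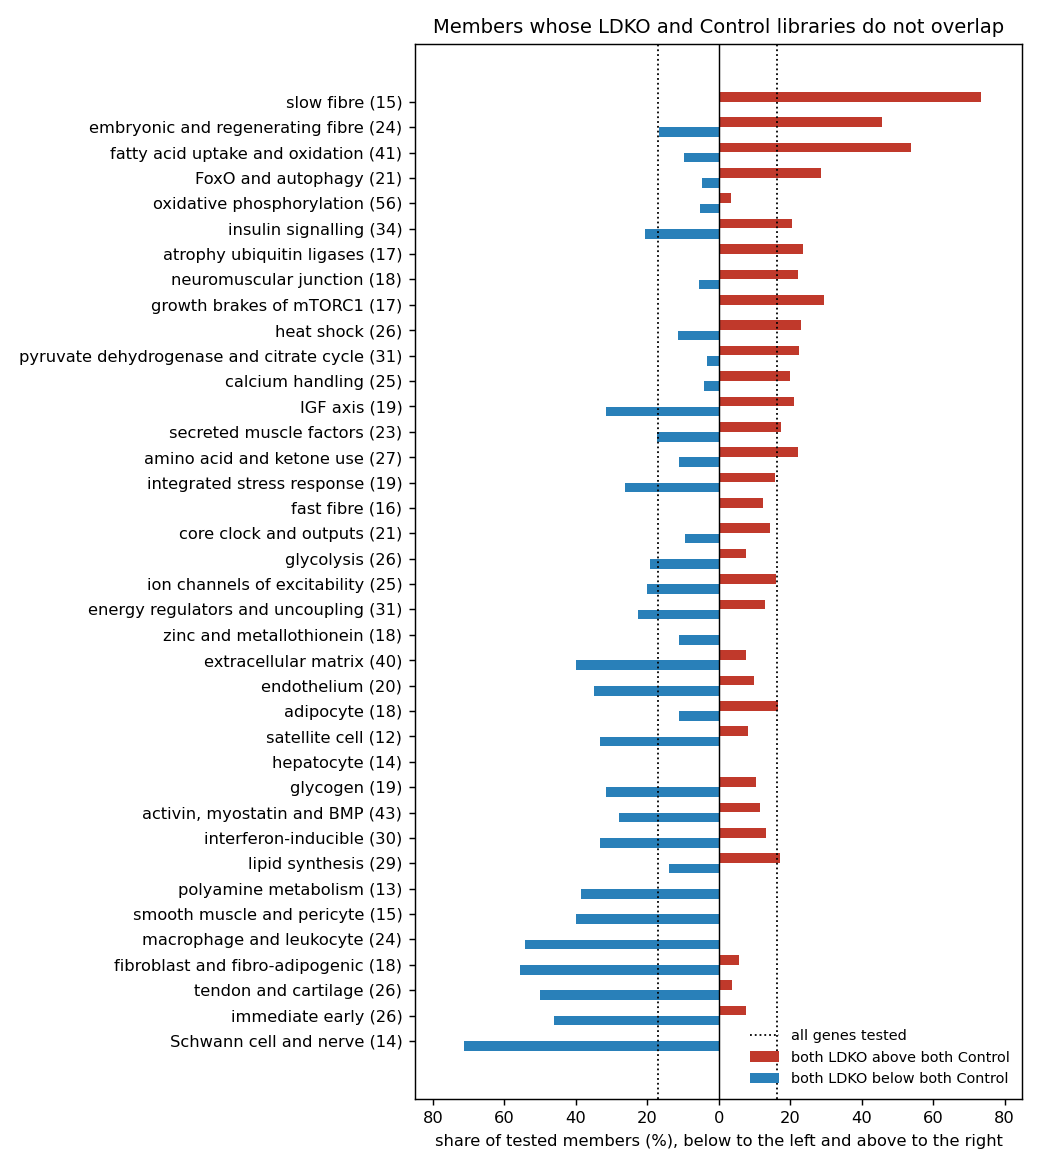
Share of tested members (x axis, percent) whose 2 LDKO libraries both lie above (red, to the right) or both below (blue, to the left) the 2 Control libraries, for each gene list with its number of genes tested in parentheses. Dotted lines mark 16.4% above and 17.1% below over all genes tested; slow fibre (73.3%) and fatty acid (53.7%) genes reach farthest to the right and Schwann cell (71.4%) and fibroblast (55.6%) genes farthest to the left, with the acinar, islet and erythroid lists not drawn.

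Some single genes outside the calls and the lists also had small p-values. Among genes with a log2 level of at least 4 in all 4 libraries, Thbd, the endothelial anticoagulant thrombomodulin, stood at −1.08 and −0.85 in LDKO, against 0.31 and 0.51 in Control (−1.38 ± 0.20, adjusted p = 0.0718). Sfrp2, a secreted modulator of Wnt signalling, stood at −1.60 and −1.45 in LDKO, against −0.05 and 0.46 in Control (−1.73 ± 0.30, adjusted p = 0.131). Alkbh8, a tRNA-modifying enzyme, stood at 0.82 and 0.74 in LDKO, against −0.31 and −0.11 in Control (0.99 ± 0.16, adjusted p = 0.119). The noncoding RNA Meg3 stood at 0.21 and 0.19 in LDKO, against −0.75 and −0.60 in Control (0.87 ± 0.16, adjusted p = 0.201). In these 4 genes the groups did not overlap, and 0 of the 4 passed. Of genes with a lower level, Eno1b, a near-identical copy of the enolase gene Eno1 with which it may share reads, stood at 4.58 and 1.80 in LDKO, against −1.92 and −2.57 in Control (5.44 ± 0.90, adjusted p = 0.0587). Edn3, the peptide hormone endothelin 3, stood at −3.48 and −2.66 in LDKO, against 0.41 and 1.00 in Control (−3.78 ± 0.69, adjusted p = 0.11).

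The authors' deposited table lists 1378 genes, 621 higher and 757 lower, each with at least a 2-fold difference of means. Its header names the comparison LDKO-Fst against LoxP-Fst. It is read here as LDKO against Control, because the single values given below equal the differences of these libraries. Of these, 271 and 426 were tested here, and 234 (86.3%) and 375 (88.0%) of them had non-overlapping libraries. Over all genes tested the shares were 16.4% above and 17.1% below. The authors' genes were chosen for their difference in these same libraries. The high shares and the overlap of calls therefore follow largely from that choice and are no independent support. The table holds 50 of the acinar genes, all lower. All 5 higher and 36 lower calls made here are in that table, which is 0.805% and 4.76% of its genes. Per the values in the authors' deposited table, Myh3 stands at 1.88, Casq2 at 1.06, Chad at −1.79 and Smad3 at −1.51, and these equal the differences of means given above.

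Set against LTKOFstL/L, with which the same LDKO libraries are compared, 251 genes were higher (1.49%) and 207 lower (1.23%) in LDKO. The values of the LDKO against Control calls were as follows in that comparison. Gm6472 differed by 4.07 (adjusted p = 0.00249), BC048679 by 1.22 (0.0195), Ifi202b by 3.41 (0.0352), Gm16505 by 1.51 (0.0375) and Chad by −1.37 (0.0193), and these passed. Gm44364 also passed there (adjusted p = 0.00621), with LDKO at the floor. Myh3 differed by 0.81 (adjusted p = 0.0686) and Gm10327 by 0.10 (0.882), and these did not. Fst was lower in LDKO than in LTKOFstL/L muscle by 1.97 (adjusted p = 0.034). Both comparisons share the LDKO libraries, so a value peculiar to these libraries enters both.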

How the data were processed

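RNA of 6 skeletal muscle libraries was extracted with TRI Reagent and made into libraries with a SMARTer mRNA kit, per the labels' protocols. Per the submitters' processing notes the build was mm10. How reads were aligned, counted and normalized is not given in the sources used. The authors deposited log2 values for every gene. As judged from these values they were centred on each gene's median (largest absolute gene median 9.54e-07) and floored at 1 scaled unit. The deposited list of LDKO against Control holds p-values corrected by the authors, at most 0.0497, and log2 differences of means, and was used for counts and for single named values.

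Centring hides a gene's level, which was therefore narrowed to a range by how finely its values are rounded in the file, and the lower end of that range was used. Genes with a log2 level of at least 4 in at least 2 libraries were tested with limma 3.58.1 in R 4.3.3. The fit took all 6 libraries with 1 mean per genotype and 3 residual degrees of freedom. Robust empirical Bayes used a prior in each of 3 strata of the lowest library's level (log2 below 4, from 4 to below 8, and from 8). Two-sided p-values were adjusted by Benjamini-Hochberg over 16838 genes at a threshold of 0.05, and only genes past it are said to have risen or fallen. Errors are moderated SEs. Coordinates are from GENCODE M21 on GRCm38, which matched 16816 of the genes. On simulated tables without and with change the choice of genes to test was right for 97.3% and 97.5% of 30413 genes. The range held the true level for only 75.3% and 75.7% of the genes given a range, so the strata of the prior may be wrong for some genes. On 1 simulated table of LDKO against Control with 17611 tested genes, 11 of 100 genes changed by log2 1 and 50 of 99 changed by log2 2 were called, with 1 false call, and a table without change gave 0 calls. The simulated noise was independent between genes, with the same spread in all libraries and no library that stood apart. The false calls on these tables therefore do not give the error rate of the calls made here.

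The comparison, the gene lists and the rule for named genes were chosen with earlier results of these data known. The rule took the targeted genes, the genes that passed, the 15 genes per direction with the smallest p among the other non-overlapping genes with a log2 level of at least 4 in all 4 libraries, the 4 members of each list with the smallest p, and the 10 largest rises and falls of the authors' list. Other members named here (such as Myh7, Atp2a2, Tnmd, Cpt2, Col1a1, Fos and Mstn) were chosen for their role after their values were seen, and some genes that the rule names are not reported here. Differences between replicates 1 and 2 correlated with r = 0.209 between LDKO and Control, −0.193 between LDKO and LTKOFstL/L and −0.050 between Control and LTKOFstL/L across genes, so replicate numbers were not taken as pairs. Alternatives changed the prior, the level filter, the scaling, the libraries in the fit, the acinar genes and the threshold.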

Additional observations from a re-analysis of the deposited data

How the results depend on the processing

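The count of genes outside the acinar list that passed in LDKO against Control was 8. It was 7 at a log2 level of at least 8, 8 with median scaling and 7 with the level at the middle of its range, an alternative chosen after seeing the data. It moved to 1 with a single prior, 2 with a spline trend, 2 with no level filter, 5 with only the LDKO and Control libraries, 3 with the acinar genes left out and 16 at a threshold of 0.10. With a library left out it ran from 2 to 57. Over all genes the count was 41, and it moved to 1 with a single prior, 6 with a spline trend, 2 with no level filter, 5 with only the LDKO and Control libraries and 3 with the acinar genes left out, with a range of 2 to 57 over the left-out libraries. The cause was not tested, beyond the number of libraries and genes in each fit. Since replicate numbers do not pair the libraries, the replicate block is given here only: it called 46 genes in all and 10 outside the acinar list.

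Over 197 named genes and all settings, 2798 of 2901 values kept their direction and side of the threshold, 65 lost a call, 28 gained it and 10 reversed, all 10 with a library left out. The reversed genes had no call in the main fit. Fits that keep every LDKO and Control library use the same difference of means, shifted only slightly by median scaling. The direction could therefore hardly change in them, and the count of kept directions is no measure of robustness there. Leaving out either LTKOFstL/L library repeats the fit of LDKO and Control alone. Their values over the left-out libraries ran from −0.08 to 0.50 for Mylpf, −0.22 to 0.03 for Casq1, −0.20 to 0.81 for Hba-a2, −0.52 to 0.26 for Hbb-bt, −0.29 to 0.49 for Hba-a1, −0.75 to 0.10 for Hp, −0.69 to 0.10 for Serpina1a and −0.11 to 6.01 for Gm15191. Depth is unknown, which limits what can be said of genes near the floor.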

Other observations

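Several gene groups in LDKO muscle lay near the shares of all genes tested. The 26 heat shock genes had a median log2 difference from Control of 0.04, with 6 above (23.1%) and 3 below (11.5%). Cryab, a small heat shock protein of the Z-disc, stood at 0.76 and 0.20 in LDKO, against −0.13 and −0.12 in Control (adjusted p = 0.645 in limma). The 21 core clock and output genes had a median of −0.01, with 3 above and 2 below, the 25 ion channel genes −0.03, with 4 above and 5 below, and the 23 tested secreted muscle factors 0.00, with 4 in each direction. The 19 tested integrated stress response genes had a median of 0.00, with 3 above and 5 below (26.3%). Phgdh, the first enzyme of serine synthesis, stood at −1.03 and −0.50 in LDKO, against 0.67 and 0.20 in Control (adjusted p = 0.544).

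The 30 tested interferon-inducible genes had a median of −0.14 (−0.01 without LDKO 2), with 4 above (13.3%) and 10 below (33.3%), while the interferon-inducible Ifi202b rose. Oas2, an antiviral RNA sensor, stood at −0.07 and 0.07 in LDKO, against 0.84 and 1.01 in Control (adjusted p = 0.571). The 18 zinc and metallothionein genes had a median of −0.06, with 0 above and 2 below, both zinc importers. Slc39a10 stood at −2.11 and −0.64 in LDKO, against 0.04 and −0.01 in Control, and Slc39a6 at −1.10 and −0.59 in LDKO, against 0.03 and −0.03 in Control (adjusted p = 0.612 and 0.635). The 6 tested erythroid genes had a median of 0.00, with 0 above and 1 below.

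Some genes outside the acinar list had the profile of the acinar genes, with high values in Control 1, lower in Control 2 and low values elsewhere. Derl3, a protein of endoplasmic reticulum quality control, stood at 0.60 and −1.44 in LDKO, against 4.11 and 2.12 in Control (adjusted p = 0.448). Gal, the neuropeptide galanin, stood at −1.48 and −0.42 in LDKO, against 5.12 and 2.54 in Control (adjusted p = 0.173). Tmed6, a cargo receptor gene of the secretory pathway, was listed at the floor in both LDKO libraries, against 7.97 and 4.48 in Control. Whether these belong with the carried-over genes was not tested.

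Single libraries decided some of the widest differences in the authors' deposited table. Gm15191 stood at 6.04 and −0.08 in LDKO, against 0.12 and −0.06 in Control, so its difference of 2.95 was −0.11 without LDKO 1. Fdx1l stood at −8.92 and −0.16 in LDKO, against 0.15 and −0.05 in Control (adjusted p = 0.783). E130208F15Rik stood at −6.91 and −0.27 in LDKO, against −0.17 and 0.17 in Control (adjusted p = 0.821). In all 3 LDKO 2 lay close to Control.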
